A study of Mus musculus with 31 samples.

Results

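The strongest distal open sites of resting regulatory T cells (Tregs) were taken from an ATAC-seq peak table. They were chosen by a measured value: after peaks holding over 0.2% of all counts were dropped and each library was scaled to the same total (CPM, the count per mega-count of the library), the 1000 intron or intergenic peaks with the highest mean over the 12 PBS libraries were kept. They were 1000 of 104979 peaks in the table and 1000 of the 65741 distal peaks that remained. Their PBS level is therefore a description and not a result, and comparisons with PBS are not independent of the choice.

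Tregs were sorted from the spleens of C57BL/6 mice with an RFP reporter of FoxP3, and open DNA was tagged with Tn5 transposase. The mice had been given 100 µL of PBS, 5 µg of mouse IL-2 (mIL-2, here IL2) or 20 µg of mIL-2/CD25, a fusion of IL-2 with its receptor chain CD25 (FP). All 3 treatments were sampled at 0.75 h and 16 h with 3 libraries each. PBS and FP were also sampled at 72 h (3 and 3 libraries) and 168 h (3 and 4 libraries), which gave 31 libraries in 10 groups. The labels do not say whether replicates came from separate mice, so p-values measure the spread between these libraries, which may be partly technical. The 2 proteins were given at different doses, so a comparison of FP with IL2 compares regimens.

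Distal open sites are mostly enhancers, insulators and unannotated promoters: stretches of DNA where transcription factors keep nucleosomes away, often far from the gene they act on. In T cells many enhancers carry binding sites of the ETS and RUNX families, and insulators carry CTCF. IL-2 is the main survival cytokine of Tregs. It acts through JAK kinases and STAT5, whose dimer binds the palindrome TTCNNNGAA.

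Library totals ran from 7.39 to 59.6 mega-counts, and the median member held 149 to 1905 counts in a library. All 5 Treg marker genes had a promoter peak, and their summed level was 101 to 183 CPM across libraries. The summed level of T cell markers was 42.7 to 113 CPM, of B cell markers 3.65 to 16.1, of NK cell markers 9.47 to 20.0, of myeloid markers 30.6 to 67.0 and of erythroid markers 4.10 to 30.8. No promoter peak was listed for 3 of 6 B cell, 1 of 4 NK cell, 4 of 7 myeloid and 5 of 6 erythroid markers. The CD8 sum was 106 to 208 CPM in PBS and 61.7 to 163 in treated libraries, over 16 overlapping peaks in 1 region of 1 gene, so the same reads can be counted more than once. Its part in the results was not tested. At 168 h, PBS replicates 1 and 2 and FP replicate 2 had the lowest totals of all libraries (7.39, 13.4 and 12.3 mega-counts) and the highest erythroid sums (24.4, 22.2 and 30.8 CPM).

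The sequences below show what kinds of DNA were among the members. They come from the GRCm38 reference, plus strand. The first is the whole peak at rank 1, with the CENP-B box in capitals, the element that binds the centromere protein CENP-B in mouse minor satellite DNA. The second is a tRNA-Glu gene (in capitals) inside the peak at rank 9, with 50 bases on each side. The third is the central 300 bases of the intronic site at Dthd1, rank 13, with ETS matches (AGGAAGT or its complement) in capitals. The last 6 are 101-base windows from sites that responded to IL2 or FP, with the STAT5 match nearest the peak centre in capitals.
Dpy19l2, chr9:24541974-24542193: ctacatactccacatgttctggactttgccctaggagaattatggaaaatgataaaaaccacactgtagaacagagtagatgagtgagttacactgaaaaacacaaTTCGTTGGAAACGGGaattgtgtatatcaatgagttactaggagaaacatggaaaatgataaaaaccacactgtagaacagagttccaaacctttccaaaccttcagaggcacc
Gm44852, chr7:58399265-58399436: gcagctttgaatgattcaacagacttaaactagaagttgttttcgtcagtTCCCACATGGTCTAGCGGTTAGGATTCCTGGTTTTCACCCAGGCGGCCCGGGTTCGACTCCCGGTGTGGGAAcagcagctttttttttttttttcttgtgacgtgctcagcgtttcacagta
Dthd1, chr5:62858325-62858624: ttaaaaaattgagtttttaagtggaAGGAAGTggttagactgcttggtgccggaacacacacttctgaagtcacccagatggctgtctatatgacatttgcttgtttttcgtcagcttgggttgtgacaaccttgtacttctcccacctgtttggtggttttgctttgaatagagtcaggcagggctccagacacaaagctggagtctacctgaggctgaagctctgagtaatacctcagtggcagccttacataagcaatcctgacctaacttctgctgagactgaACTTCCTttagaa
Slc39a10, chr1:46864412-46864512: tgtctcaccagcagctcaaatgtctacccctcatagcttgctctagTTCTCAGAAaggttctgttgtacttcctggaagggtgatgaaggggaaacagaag
Mbd5, chr2:49177194-49177294: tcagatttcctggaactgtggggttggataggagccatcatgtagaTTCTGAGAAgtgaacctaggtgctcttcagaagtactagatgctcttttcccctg
Cdk6, chr5:3460908-3461008: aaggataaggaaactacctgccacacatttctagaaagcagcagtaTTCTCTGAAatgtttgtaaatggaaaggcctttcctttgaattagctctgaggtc
Bcl2, chr1:106612792-106612892: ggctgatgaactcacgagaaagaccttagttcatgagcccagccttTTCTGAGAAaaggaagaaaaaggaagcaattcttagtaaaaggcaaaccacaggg
Mdfic, chr6:15793434-15793534: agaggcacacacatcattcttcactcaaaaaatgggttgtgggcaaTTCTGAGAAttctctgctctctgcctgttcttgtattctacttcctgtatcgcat
Gm46348, chr12:42007871-42007971: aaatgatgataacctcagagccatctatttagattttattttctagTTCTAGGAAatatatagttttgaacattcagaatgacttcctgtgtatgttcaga

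The members spanned a wide range of levels. The mean over the 12 PBS libraries ran from 31.8 to 1174 CPM, with a median of 40.6, against a median of 2.90 for the 64741 other distal peaks. At the limit of the choice, sites at Pik3r1, Gm25420 and Scd1 were just inside (31.779, 31.776 and 31.771 CPM), and sites at Map3k7, Ninj2 and Gm33785 just outside (31.763, 31.747 and 31.739 CPM). Members were also wider, with a median of 941 against 312 bp. The choice favours wide peaks: ranked by CPM per kb, 543 of the 1000 would have been chosen. Dropping the PBS libraries of 1 time at a time kept 936 to 972 members.

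**Figure D1:**
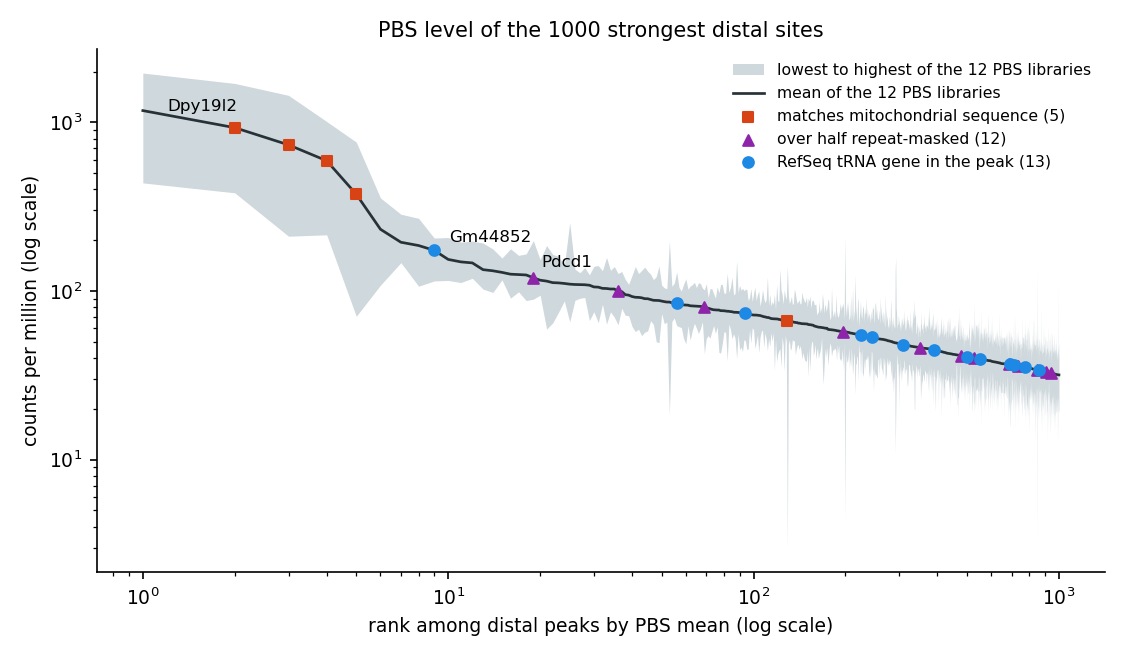
PBS level (CPM, log scale) of the 1000 sites against their rank (log scale). The line is the mean of the 12 PBS libraries and the band their lowest to highest value; coloured symbols mark 5 sites that match mitochondrial sequence, 12 that are mostly repeat-masked and 13 with a RefSeq tRNA gene. The curve drops from 1174 at rank 1 to 31.8 at rank 1000, and 4 of the first 5 sites match mitochondrial sequence.

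The first 5 sites of the ranking held a centromeric sequence element or mitochondrial sequence. The first site, labelled Dpy19l2 (chr9:24541974-24542193, intergenic), had 1174 ± 446 CPM (SD, n = 12) and held a CENP-B box. In all, 2 members held that box (0.2%), against 0.0201% of other distal peaks and 0.518% of promoter peaks as strong as the members. The box was sought over the whole peak, and members were wider than other distal peaks, so these shares are not per base. The next 4 sites, labelled Gm43393, Abcb11, Gm5110 and Gm49817, had 930, 735, 592 and 374 CPM. Between 66.15% and 87.15% of their bases matched the mitochondrial genome. Nuclear copies of mitochondrial DNA can take up reads from mitochondria, which lack nucleosomes, and the part of such reads here was not tested. Another such site lay at Ric8b. Sites at Cldn34d, BC002059 and Gm18999 followed at 232, 194 and 186 CPM. The Dpy19l2 site was also unsteady, from 437 to 1961 CPM over the PBS libraries, with group means of 1468, 1352, 647 and 1229 at 0.75, 16, 72 and 168 h.

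Of the 1000 members, 17 were mitochondrial copies or mostly repeat-masked. The Dpy19l2 site, 22.7% repeat-masked, is not among the 17, and whether the other members are unique sequence was not measured. The Gm44852 site at rank 9 (chr7:58398504-58400062, 174 ± 26.3 CPM, n = 12) held the tRNA-Glu gene printed above. RefSeq placed a tRNA gene in 13 members (1.3%), against 0.188% of other distal peaks and 0.286% of the strong promoter peaks. RefSeq features were sought over the whole peak, and a wider peak covers more of them. Median widths were 941 bp for members, 312 bp for other distal peaks and 1055 bp for the strong promoters. The part of width in these shares and those below was not tested. Transfer RNA genes are read by RNA polymerase III from promoters inside the gene. The other sites included tRNA-Leu at Gm5737 (84.5 CPM), tRNA-Thr and tRNA-Tyr at Rnase4 (73.5 CPM) and tRNA-His at Gm24409 (48.0 CPM). None of the 13 passed the threshold in any comparison below. With IL2 at 0.75 h, the comparison with most calls, 0.488% of all peaks and 1.8% of members rose. At such shares 13 sites would hold few or no calls, so the lack of calls says nothing about tRNA genes. A further 72 members (7.2%, in 57 separate regions) covered the start of a RefSeq transcript, against 0.999% of other distal peaks, although the deposited annotation calls them intron or intergenic. Of these, 29 were starts of coding transcripts, such as Atxn7 (78.4 CPM), Trim30a (60.2 CPM), Cpeb4 (57.2 CPM), Bbx (46.0 CPM) and Sin3a (42.2 CPM). These 72 had a median GC content of 54.1% against 46.5% for the other 928, and SP matches (GGGGCGGGG) in 22.2% against 4.74%. By GENCODE, 5 members lay within 1 kb of a start site. RefSeq's curated regulatory elements overlapped 25 members, in 7 separate regions, 10 of them overlapping peaks at Mn1.

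Among members near known T cell genes, the strongest lay at Pdcd1, which encodes the inhibitory receptor PD-1 (chr1:94034801-94036076, 124 ± 23.1 CPM, n = 12). Its nearest coding start, at 14945 bp, is that of Neu4. The site nearest the start of Cblb, a ubiquitin ligase that restrains T cell activation, had 82.3 ± 13.6 CPM (n = 12). Sites at Cxcr4, the receptor that holds cells near CXCL12, and at Cd69, an early activation marker, had 72.5 ± 10.5 and 63.8 ± 15.2 CPM. Ikzf1 (the factor Ikaros) followed with 53.0 ± 12.1 and Tox with 51.3 ± 10.4 CPM. The nuclear receptor gene Rora had 50.6 ± 8.07 CPM. The IL-7 receptor gene Il7r had 47.6 ± 13.3 CPM, the NF-kB subunit gene Nfkb1 47.4 ± 7.98 and S1pr1, needed for exit from lymphoid tissue, 42.4 ± 7.38. The remaining listed genes, Socs1, Lef1, Itgb8, Capg, Bcl2, Izumo1r, Nfatc1 and Cdk6, lay between 33.5 and 40.7 CPM.

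Genes that define Tregs were looked up among the members. By the deposited gene name, 2 of 20 Treg identity genes held a member: Capg and Izumo1r, which encodes folate receptor 4. None of the members was assigned to Foxp3, Il2ra, Ctla4 or Ikzf2. By nearest coding gene the count was 4, with Tigit and Icos added. The counts were 4 of 27 for IL-2 and STAT5 response genes (Nfkb1, Socs1, Bcl2, Cdk6), 4 of 15 for resting and lymphoid-homing genes (Cxcr4, Il7r, S1pr1, Lef1) and 5 of 35 for T cell lineage and receptor signalling (Cblb, Cd69, Ikzf1, Tox, Nfatc1). They were 3 of 19 for effector Treg genes (Pdcd1, Rora, Itgb8) and 2 of 20 for trafficking genes (Cxcr4, S1pr1). The share of all genes that held a member was not computed, so these counts do not say whether a list held many or few. The deposited gene was the nearest coding gene for 582 of 1000 members. The 1000 members had 789 gene names, and 687 of these names had 1 member.

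The kinase gene Stk39 held most separate regions: 6 sites over 165 kb with 31.9 to 79.6 CPM. Cblb, Sox5, Cmss1 with Filip1l, and Gm35330 held 4 each. The 4 Cblb sites ran from 34.7 to 82.3 CPM over 87.0 kb. Counts of peaks give another order, because 119 members overlap another member and merging left 897 regions. Gm47635 had 12 peaks in 3 regions, Cobll1 and Chaer1 11 each in 2 regions, and Mn1 and Cpox 10 each in 1 region. Mir17hg had 8 in 2 regions, and Ninj2, Marcks, Chd1 and Tmem45a2 8 each in 1. Joining regions within 10 kb left 868 stretches, of which 26 had 2 or more regions.

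The members were 489 intron and 511 intergenic peaks by the deposited annotation. The median distance to the nearest annotated start was 13282 bp (13457 bp for other distal peaks), 606 members were over 10 kb away, and 183 were over 100 kb from a coding start. Median GC content was 46.7%, close to the 46.5% of other distal peaks and below the 61.2% of the 5600 promoter peaks of the same strength.

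The sites varied little between untreated libraries. The coefficient of variation over the 12 PBS libraries had a median of 21.0%, against 47.0% for other distal peaks, whose counts are lower, and 19.7% for the strong promoters. The steadiest were at Cobll1 (chr2:65189226-65189982), which ran from 31.4 to 39.4 CPM, and at Rap2b, from 29.7 to 36.4. With mitochondrial copies and mostly repeat-masked sites set aside, the least steady site was at Gm13191. It ran from 4.42 in PBS replicate 3 at 72 h to 212 CPM in PBS replicate 1 at 168 h. Gm13161 and Cdh26 had their highest values, 134 and 81.7 CPM, in that same 168 h library. Filip1l with Cmss1, Gm11668, Gm37350 and Gm28502 had their highest values in PBS replicate c1 at 16 h (107, 158, 124 and 254 CPM). Gm23950 had its highest value, 198 CPM, in PBS c2 at 16 h. No cause was tested.

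The base sequence of the members set them apart from weaker distal peaks in some motifs only. A match was sought in the central 300 bases on both strands. This window covers less of a member (median width 941 bp) than of another distal peak (312 bp), so matches off the centre are missed more in members. Over the whole peak, 29.9% of members held a STAT5 match. An ETS match was present in 23.7% of members against 17.2% of other distal peaks. A RUNX match (TGTGGTT) was present in 19.6% against 11.2%, and both in 1 window in 4.2% against 1.99%. The SP match was present in 6.0% against 1.44%. CTCF went the other way, with 0.9% of members (9 sites) against 7.18% of other distal peaks. Shares lay close together for AP-1 (TGANTCA, 12.3% and 12.0%), STAT5 (11.7% and 12.1%), NF-kB (GGANTTNCC, 3.8% and 3.89%) and forkhead sites (TGTTTAC, 5.1% and 4.96%). FoxP3 itself is a forkhead factor. The strong promoters had ETS in 7.39%, RUNX in 3.32% and SP in 19.9%. With 1 member per overlapping group, ETS, RUNX and CTCF gave 24.0%, 19.8% and 1.00%, while SP fell to 4.35%. These shares are descriptions: peaks that overlap share sequence, and a match is not a bound site.

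**Figure D2:**
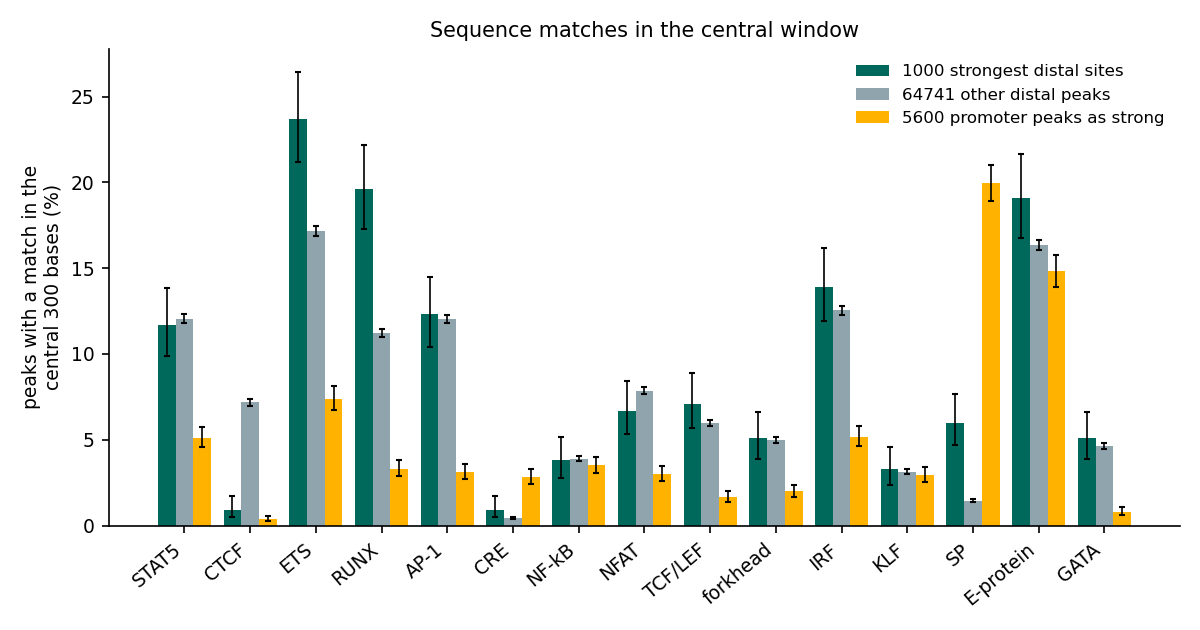
Share of peaks (%) with a match to each motif in the central 300 bases, for the 1000 members, 64741 other distal peaks and 5600 promoter peaks of the same strength; error bars are 95% Wilson intervals and cover counting error only. ETS and RUNX bars are highest for the members (23.7% and 19.6%), and the CTCF bar is high only for the other distal peaks (7.18%).

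The first comparison asked how these sites responded 0.75 h after IL2. At the 0.05 threshold 18 members rose and 1 fell, while over all tested peaks 0.488% rose and 0.00896% fell. All 19 had groups that did not overlap. That describes sites already picked by this test and adds no evidence, and the same holds for such counts below. The share of all peaks whose groups did not overlap was not computed. The median log2 fold change of the 1000 was 0.002, against -0.02 for all peaks. With members chosen from the PBS libraries of the other times, 14 rose and 1 fell. In a fit with the replicate number as a block, where the libraries of a number deviated together, 42 rose and 2 fell. Over all peaks that fit called 941 up and 42 down, against 490 and 9 in the fit reported here. Without IL2 replicate 3 or PBS replicate 3 the count was 7, without IL2 replicate 1 it was 9, without PBS replicate 1 10 and without PBS replicate 2 12. Over all peaks 187 to 382 rose in these fits. The CD8 marker sum was 106 to 199 CPM in PBS and 98.1 to 136 with IL2, and the Treg sum 123 to 133 and 121 to 146. Their part was not tested.

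The largest rise was at Gm46348 (chr12:42007692-42008646, intron), whose nearest coding start, that of Lrrn3, is 521738 bp away. Its PBS libraries at 0.75 h had 48.7, 43.8 and 38.0 CPM and its IL2 libraries 158, 149 and 143. The lowest IL2 library was far above the highest PBS library, with a log2 fold change of 1.80 ± 0.23 (SE) and an adjusted p of 0.00119. An intergenic site labelled Gprin3 (chr6:59313000-59313832) had 44.4, 34.4 and 37.4 CPM with PBS and 122, 106 and 129 with IL2 (log2 fold change 1.63 ± 0.20). The groups again lay far apart (adjusted p = 0.000915). In an intron of Cdk6, which encodes a kinase that drives cells into S phase, levels were 42.3, 44.1 and 41.1 CPM with PBS and 121, 101 and 118 with IL2. The PBS values were nearly equal, and the log2 fold change was 1.43 ± 0.18 (adjusted p = 0.00133). The Cdk6 site is at chr5:3460392-3461607, 9950 bp from the gene's start.

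Slc39a10 encodes a zinc importer. Its intronic site (chr1:46864004-46864939) had 39.8, 38.7 and 43.2 CPM with PBS and 110, 82.6 and 111 with IL2. The lowest IL2 library was well above the highest PBS library (log2 fold change 1.33 ± 0.20, adjusted p = 0.00397). Bcl2, the survival gene that is a known STAT5 target, had an intronic member (chr1:106612369-106613381) with 41.8, 49.7 and 38.2 CPM with PBS and 89.4, 92.9 and 103 with IL2. All IL2 libraries exceeded 89 CPM and none of the PBS libraries exceeded 50 (log2 fold change 1.15 ± 0.19, adjusted p = 0.00776). Mdfic held 2 of the risen members. The stronger (chr6:15792755-15793966) had 174, 186 and 147 CPM with PBS and 319, 267 and 316 with IL2, a log2 fold change of 0.85 ± 0.17. The weaker, also intronic, rose by 1.32 ± 0.23.

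Rises of 1.29 ± 0.23 at Akap13, a scaffold for protein kinase A, 1.25 ± 0.20 at Gm18269, 1.24 ± 0.19 at another Gm44852 site without the tRNA gene, and 1.17 ± 0.18 at Gm7266 were of the same order. The Gm7266 site (chr1:144282921-144284080) lay 34258 bp from the start of Rgs1, a regulator of G protein signalling. Tmem64 rose by 0.99 ± 0.20. The remaining rises, at Impg1, Neto2, Tasp1, Mbd5, Plcl2 and a second Gm7266 site, lay between 0.87 and 0.96. The only fall was at Gm20139 (chr10:19184740-19185309), with 54.2, 52.7 and 42.1 CPM with PBS and 25.7, 20.1 and 20.9 with IL2. The groups were apart by a wide margin (log2 fold change -1.14 ± 0.24, adjusted p = 0.0324). Its nearest coding gene is Tnfaip3, an inhibitor of NF-kB signalling, at 169367 bp. The FP libraries of that time had 16.4 to 27.6 CPM, a log2 difference from PBS of -1.12 that did not pass (adjusted p = 0.221). Calls at Gm46348, Gprin3, Cdk6, Slc39a10, Gm18269, Gm44852 and the first Gm7266 site held in all 17 alternative fits. Bcl2 lost its call without IL2 replicate 3, PBS replicate 1 or PBS replicate 3, and Akap13 and the weaker Mdfic site lost theirs without IL2 replicate 1, IL2 replicate 3 or PBS replicate 3. Gm20139 lost its call without any 1 of the 6 libraries, and Tmem64 in 8 of 17 fits.

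FP at 0.75 h gave no call among the members (0 up, 0 down; 75 members at an unadjusted p under 0.05). Over all peaks 0.00199% rose and 0% fell. DESeq2 called 10 members up and 1 down, and over all peaks 213 up and 4 down. Since FP and IL2 were compared with the same PBS libraries, only their values can be set side by side. At the 18 sites that rose with IL2, the FP log2 differences were all above 0, from 0.27 to 1.11 with a median of 0.77. At Gm46348 the FP libraries had 127, 88.0 and 65.4 CPM, at Cdk6 97.8, 85.6 and 78.7, and at Mbd5 172, 145 and 145. These exceed every PBS library of that time. The direct test of FP against IL2 at 0.75 h called no member (0% of all peaks up and 0% down; 31 members at an unadjusted p under 0.05, and 0 by DESeq2).

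At 16 h members were called against PBS with FP, as given below, but not with IL2. Whether the difference between FP and IL2 changed from 0.75 h to 16 h was not tested. IL2 gave no call among the members against PBS (0 up, 0 down, and 0% of all peaks in either direction). There were 80 members at an unadjusted p under 0.05 and DESeq2 called 0. At the 18 sites risen at 0.75 h, the IL2 log2 differences at 16 h were -0.21 to 0.45. The test of the change in the IL2 effect from 0.75 h to 16 h called 0 members up and 1 down, against 0% and 0.0305% of all peaks. The site was Gm46348, where the 16 h levels were 44.6, 35.0 and 24.1 CPM with PBS and 33.5, 38.2 and 29.5 with IL2. These groups overlapped, and the effect had fallen by 1.74 ± 0.31 (adjusted p = 0.0407). That call was lost in 12 of 16 alternative fits, with an adjusted p of up to 0.175. Gprin3 (-1.58 ± 0.31) and Cdk6 (-1.51 ± 0.29) had changes of similar size with an adjusted p of 0.0784 and 0.0571.

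**Figure D3:**
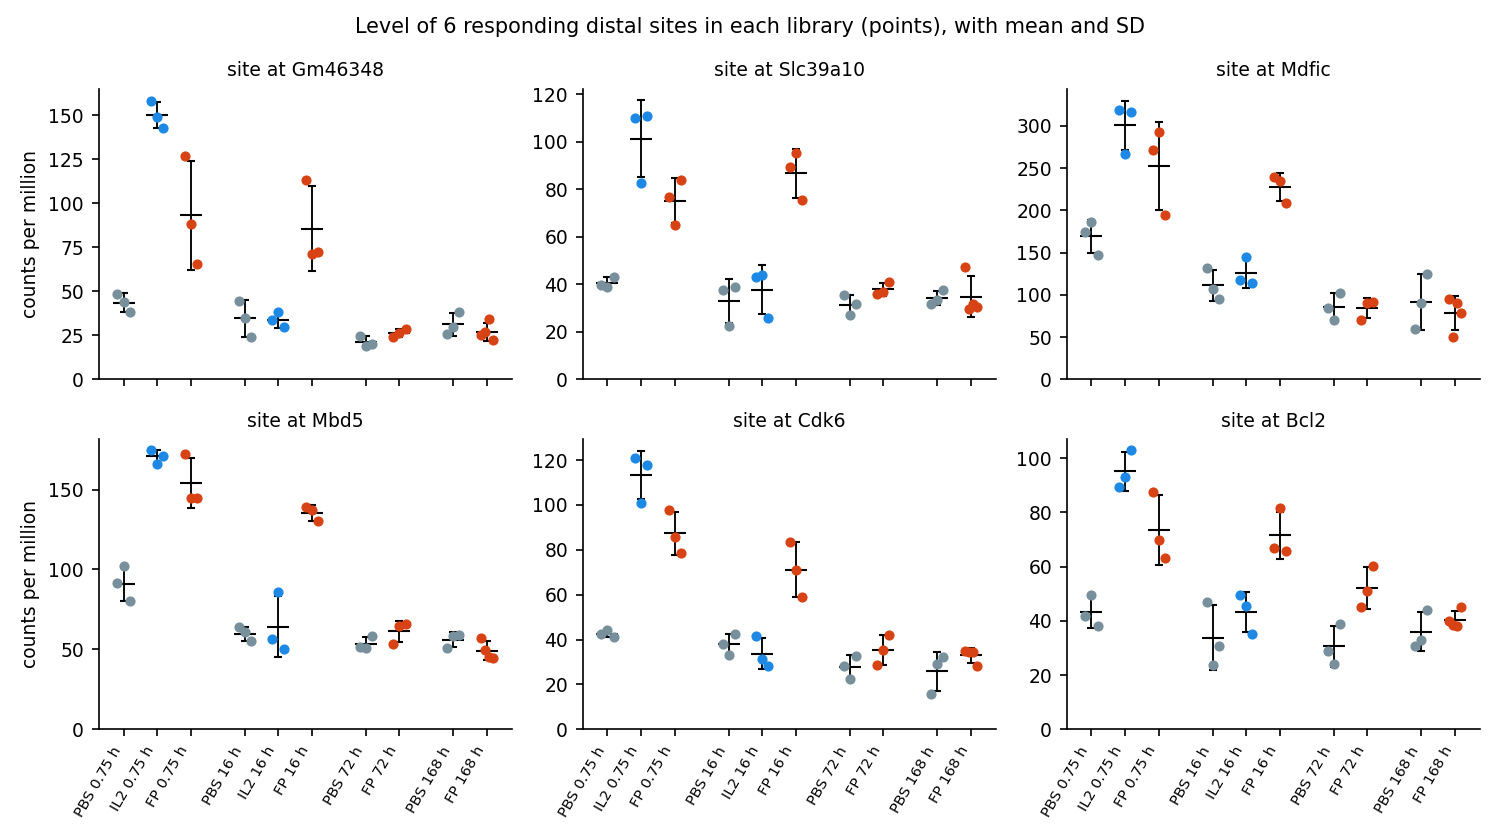
Level (CPM) of 6 responding sites in each library (points) with the mean (bar) and SD (whiskers) of each group; groups are ordered by time and then PBS, IL2, FP. At 0.75 h the IL2 points lie above the PBS points in all 6 panels; at 16 h the FP points lie above the PBS and IL2 points, and at 168 h FP and PBS overlap in all 6.

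FP at 16 h raised 10 members and lowered 0, against 0.114% and 0% of all peaks. All 10 had groups that did not overlap. The largest was the Slc39a10 site, with 37.4, 22.5 and 39.0 CPM with PBS and 89.5, 95.2 and 75.5 with FP. No FP library came near the PBS range (log2 fold change 1.46 ± 0.23, adjusted p = 0.00489). Gm46348 had 113, 71.2 and 72.2 CPM with FP, a rise of 1.37 ± 0.23. Mbd5 encodes a protein with a methyl-CpG-binding domain. Its intronic site (chr2:49176697-49177812) had 63.7, 60.8 and 55.0 CPM with PBS and 139, 137 and 130 with FP. Both groups were tight, with a log2 fold change of 1.24 ± 0.19 and an adjusted p of 0.00382.

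The Mdfic site had 132, 107 and 94.9 CPM with PBS at 16 h and 240, 235 and 209 with FP. The lowest FP library was well above the highest PBS library (log2 fold change 1.11 ± 0.16, adjusted p = 0.00329). Bcl2 rose by 1.15 ± 0.23 (adjusted p = 0.0349), from 47.0, 23.7 and 30.6 to 67.0, 81.7 and 65.8 CPM. The other rises were at Akap13 (1.19), Gm35330 (1.16), Gm44852 (1.13), Tmem64 (1.03) and Gm13338 (1.02). Calls at Mbd5 and Mdfic held in all 16 alternative fits. Slc39a10 lost its call without FP c2, and Gm46348 without FP c1, without PBS c3 or with members' totals as the scaling. The other 6 were lost in 7 to 9 of 16 fits, both scalings by totals among them. Library totals as the scaling left 4 calls, and members' totals 3. Without FP c1 or FP c2 there were 3 calls, without FP c3 5, without PBS c1 or PBS c3 6 and without PBS c2 7. Over all peaks 37 to 66 rose in these fits, against 115 in the fit reported here. With members chosen from other times' PBS, 9 rose. The CD8 marker sum was 138 to 208 CPM in PBS and 121 to 155 with FP, and its part was not tested.

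The sites that answered FP at 16 h were mostly sites that answered IL2 at 0.75 h. The 2 comparisons share no library. Of 19 members called with IL2 at 0.75 h and 10 with FP at 16 h, 8 were called in both, 42.1% of the first list and 80% of the second. Over all peaks 490 rose in the first comparison and 115 in the second. The overlap of those was not counted, so the 8 do not show a trait particular to the members. The 18 sites risen with IL2 at 0.75 h all had FP log2 differences above 0 at 16 h, from 0.50 to 1.46 with a median of 1.02, where the median of all members was 0.10. The exceptions among the FP calls were Gm35330 and Gm13338, whose IL2 differences at 0.75 h were 1.01 and 0.72 with an adjusted p of 0.0504 and 0.178.

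The contrast of FP with IL2 at 16 h has no PBS library on either side. The 16 h PBS libraries, which helped choose the members, still entered the fit and its estimate of the spread. A fit of the FP and IL2 groups alone called 9 members higher with FP and 0 lower, and over all peaks 164 higher and 0 lower. In the fit reported here 6 members were higher with FP and 0 lower, against 0.141% and 0% of all peaks, and all 6 had groups that did not overlap. They were Gm46348 (1.32 ± 0.23, adjusted p = 0.0122), Slc39a10 (1.19 ± 0.23), Cdk6 (1.06 ± 0.20), Mbd5 (1.05 ± 0.19), Gm44852 (1.04 ± 0.20) and Mdfic (0.84 ± 0.16). At the Cdk6 site the IL2 libraries had 41.6, 31.2 and 28.4 CPM and the FP libraries 83.6, 71.0 and 58.9. FP was higher in each library, and the IL2 values lay in the range of the 16 h PBS libraries or just below it (38.2, 32.9 and 42.5 CPM). The Treg marker sum was 130 to 144 CPM with FP and 144 to 162 with IL2 (143.8 the highest with FP, 144.3 the lowest with IL2), and the T cell sum 42.7 to 72.7 and 78.7 to 81.5. Both were lower with FP without overlap, and their part was not tested. All 6 were among the 18 sites risen with IL2 at 0.75 h, and all 18 had values above 0 in this contrast, with a median of 0.76 where all members had -0.10. Library totals as the scaling gave 0 calls. Without FP c1 or without IL2 c3 there were 0, without FP c2 or IL2 c1 1, and without FP c3 3. Over all peaks 38 to 73 were higher with FP in these fits, against 142 in the fit reported here.

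**Figure D4:**
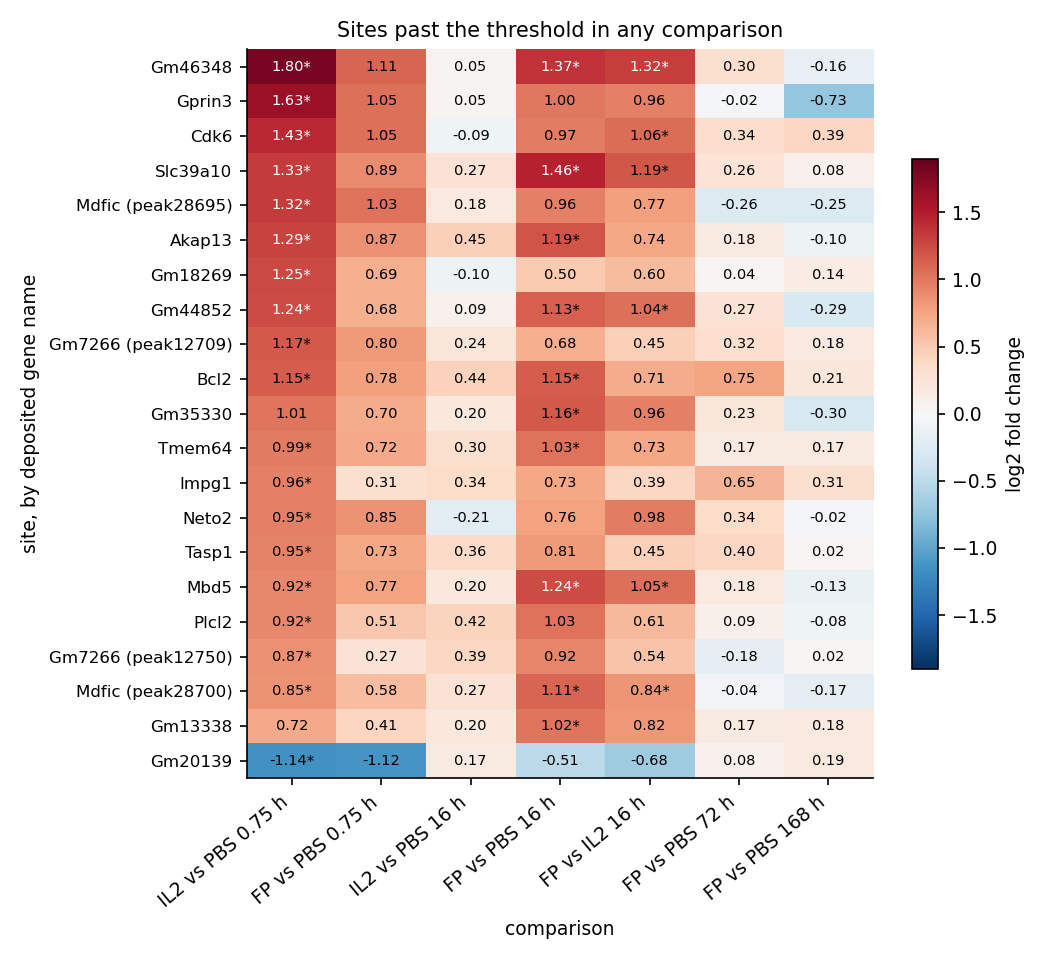
Log2 fold change (colour and number) of the 21 members past the threshold in any comparison (rows, by deposited gene) in 7 comparisons (columns); an asterisk marks an adjusted p under 0.05. The IL2 0.75 h and FP 16 h columns are red in 20 of 21 rows, the IL2 16 h column is pale, and the 72 h and 168 h columns hold no asterisk.

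By 72 h and 168 h no member passed the threshold for FP against PBS (0 up and 0 down at each time, with 0% of all peaks in both directions). At an unadjusted p under 0.05 there were 111 and 58 members. DESeq2 called 3 members down at 72 h and 0 at 168 h. The 18 sites risen with IL2 had median FP log2 differences of 0.22 at 72 h and -0.002 at 168 h. Bcl2 was the highest of them at 72 h, with 28.8, 24.2 and 38.7 CPM with PBS and 45.2, 50.9 and 60.2 with FP. These groups did not overlap, but the difference of 0.75 ± 0.22 had an adjusted p of 0.930. At 168 h Gprin3 was the lowest, with 29.9, 46.6 and 30.4 CPM with PBS and 22.0, 25.6, 16.9 and 17.8 with FP (-0.73 ± 0.22, adjusted p = 0.899). The change in the FP effect from 16 h to 72 h was called at 0 members (0% of all peaks up and 0.000973% down; 118 members at an unadjusted p under 0.05, and 2 by DESeq2).

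As a body, the members shifted a little at some times. The median log2 difference of IL2 from PBS at 16 h was 0.19, with 87.2% of members above 0, and 0.16 for promoter peaks of the same strength, against 0.004 for all peaks. For FP at 168 h it was 0.13, and 0.16 for those promoters. Single libraries moved both medians: at 16 h it was 0.09 without IL2 c2, and at 168 h 0.04 without PBS replicate 1 and 0.27 without PBS replicate 4. With members' totals as the scaling, which removes a shift that they share, these medians came to 0.02 and 0.04, and the median of all peaks to -0.15 and -0.10. The members' share of the counts kept was 4.89 ± 0.10% with PBS and 5.18 ± 0.70% with IL2 at 16 h (SD, n = 3 each), and the ranges overlapped.

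Few of the members at listed genes responded. Of the 5 members at IL-2 and STAT5 response genes, 2 rose with IL2 at 0.75 h (Bcl2 and Cdk6) and 0 fell, with a median of 0.49. Over all peaks 0.488% rose with a median of -0.02, and over all members 1.8% rose with a median of 0.002. With FP at 16 h 1 rose (Bcl2), with a median of 0.35, against 0.114% and -0.02 over all peaks and 1.0% and 0.10 over all members. Socs1, which encodes a feedback inhibitor of JAK kinases, had 0.49 and 0.35, and Nfkb1 -0.53 and 0.20; neither passed. None of the 2 Treg identity, 5 resting and homing, 10 lineage and receptor, 3 effector or 2 trafficking members, by deposited gene, passed in any comparison. At these background shares so few members would hold few or no calls, so the zeros say nothing about the lists. At Pdcd1, the strongest of them, the log2 differences were -0.14 for IL2 at 0.75 h and 0.21 for FP at 16 h. Ikzf1 had 0.62 and 0.66 in the same comparisons and did not pass.

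Most of the responding sites held the STAT5 palindrome, a feature the choice of members did not use. Over the whole peak, 14 of the 18 sites risen with IL2 at 0.75 h held a match (77.8%) and 12 held 2 or more. For the 10 risen with FP at 16 h the counts were 9 and 8. Of the 979 members never called, 283 held a match (28.9%) and 45 held 2 or more. Widths were alike, with medians of 987, 1016.5 and 941 bp. In the windows printed above, Slc39a10 holds matches 10 and 13 bases from the peak centre and Mbd5 holds matches 11 and 51 bases from it. At Gm46348 all 3 matches lay over 200 bases from the centre, so its central window counts as having none. Among the 117 members with a match in the central 300 bases, 12 rose with IL2 at 0.75 h and the median log2 difference was 0.26. Among the other 883, 6 rose, 1 fell and the median was -0.02. At 16 h the medians were 0.23 and 0.09 for FP and 0.20 and 0.19 for IL2. A split by ETS match gave 0.005 and 0.0001 with IL2 at 0.75 h, and a split by AP-1 match -0.03 and 0.007. With FP at 16 h, 6 of the 117 members with a STAT5 match rose and 4 of the other 883. For FP at 16 h the split was not particular to STAT5: with an AP-1 match 5 of 123 rose, and without one 5 of 877. With IL2 at 0.75 h, 3 of 123 members with an AP-1 match rose and 15 of 877 without one. The counts there were 5 of 237 and 13 of 763 for ETS, and 4 of 196 and 14 of 804 for RUNX. The AP-1 medians for FP at 16 h were 0.13 and 0.10.

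**Figure D5:**
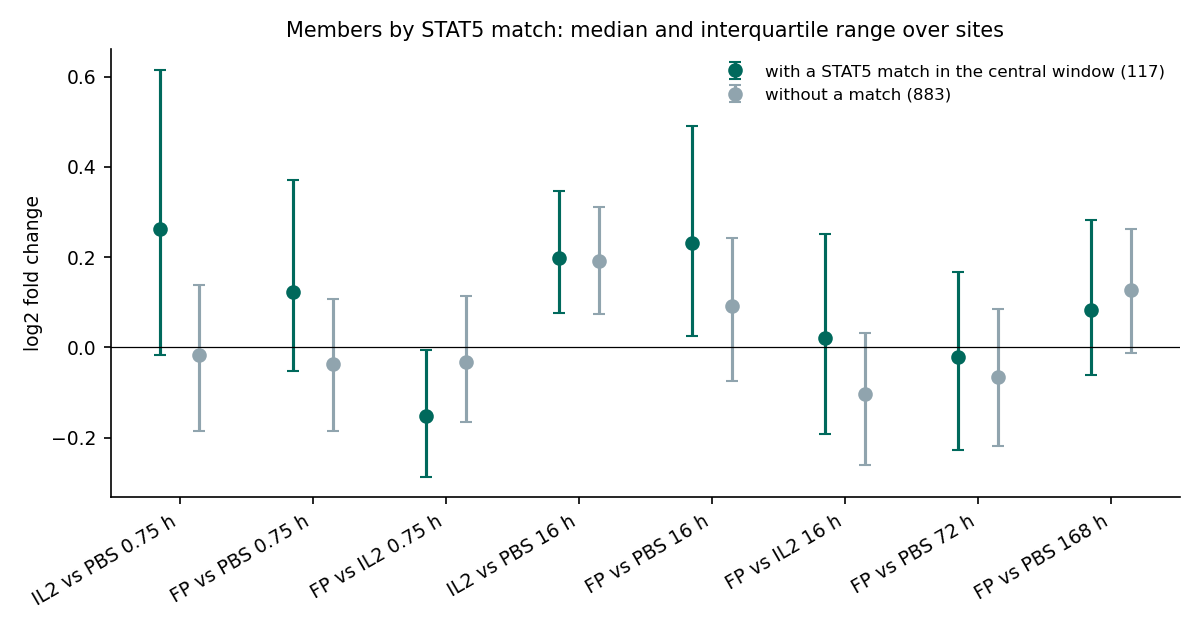
Median (point) and interquartile range (whiskers) of the log2 fold change over members with a STAT5 match in the central 300 bases (117) and without one (883), for 8 comparisons of 2 groups. The points lie apart for IL2 at 0.75 h (0.26 and -0.02) and FP at 16 h (0.23 and 0.09) and together for IL2 at 16 h (0.20 and 0.19).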

How the data were processed

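ATAC-seq was done on sorted spleen Tregs. Per the series design text and the submitters' processing notes, the authors mapped reads to GRCm38 with BWA, called peaks with MACS2 2.1.2 and kept reproducible ones. No source used here names the read counter or a duplicate filter. The deposited table holds unnormalized read counts per peak and library, which the authors give with a class and gene for each peak. Fields were read from the right end of each line because gene names hold commas, and 0 per-sample columns were left unmapped. Groups came from titles; at 16 h columns show only the group, so those libraries are called c1, c2 and c3. Times after 0.75 h rest on titles, since the labels' treatment protocol states only 0.75 h.

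CPM were computed after dropping 15 peaks with 37.59% of all counts (4 of them distal). Tests used all peaks: edgeR 4.0.16 (R 4.3.3) with TMM, filterByExpr (minimum count 10, minimum total 15), 1 coefficient per group, all groups of a time, and a quasi-likelihood F test with Benjamini-Hochberg adjustment across the whole tested table and a 0.05 threshold. All 1000 members passed the filter. SEs are the log2 fold change divided by the square root of F. The test was tried on simulated counts. DESeq2 1.42.0 was an alternative. Start sites are from GENCODE M21, other features from RefSeq on GRCm38; mitochondrial matches are BLAST hits covering over 20% of a peak, and mostly repeat-masked means over 50%. RefSeq features, the CENP-B box and values per kb were looked at after the data were seen.

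Members and lists were chosen with earlier results of these data known. Named were the 15 strongest members, the 10 genes with most members (1 is not reported here), called members (the 12 largest where more), list genes with their strongest member, and sites at the rank limit; others were chosen after their values were seen. Same-numbered IL2 and PBS libraries at 0.75 h deviated together (correlations 0.132, 0.312 and 0.109), so the fit with the replicate number as a block is given beside that result; the values reported are from the fit without it. Same-numbered pairs did not all exceed 0.1 in other comparisons.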

Additional observations from a re-analysis of the deposited data

Results flagged for a closer look

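At 168 h each FP value per site was compared with the other 3 of its group, in 53 groups of 4, and 4 had a library far from the rest, where chance flags about 1 in 20. Gm7266 had 28.5 CPM in FP replicate 2 against 48.9 to 51.7 in the others. Akap13 had 14.6 CPM in that replicate against 31.9 to 34.1; it is the FP library with the lowest total at 168 h. Slc39a10 had 47.5 CPM in FP replicate 1 against 29.4 to 31.5. Cdk6 had 28.1 CPM in FP replicate 4 against 34.5 to 35.1.

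The IL2 effect differed between times at Gm46348, by -1.74 on the log2 scale at 16 h relative to 0.75 h, in edgeR's test of the difference itself.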

How the results depend on the processing

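The 29 tests of named sites kept their direction in all 476 alternative fits; 357 stayed past the threshold and 119 did not. With IL2 at 0.75 h (19 called) the count was 7 for the 500 strongest sites, 33 for the 2000 strongest, 8 for a choice by CPM per kb, 31 with DESeq2 and 44 with the replicate block, and 7 to 20 leaving out 1 library. With FP at 0.75 h (0) it was 11 with DESeq2, 13 with the replicate block and 0 to 1 leaving out 1 library. With FP at 16 h (10) it was 4, 18 and 4 for those 3 choices of members, 4 with library totals, 3 with member totals, 22 with DESeq2 and 3 to 14 leaving out 1 library. For FP against IL2 at 16 h (6) it was 2, 12 and 2, then 0 with library totals, 15 with DESeq2, 10 with all 31 libraries and 0 to 9 leaving out 1 library. For FP at 72 h (0) DESeq2 called 3. The change of the IL2 effect (1) gave 0 with library totals, 4 with DESeq2, 2 with all 31 libraries and 0 to 1 leaving out 1 library. The change of the FP effect (0) gave 2 with DESeq2. Counts scale with the number of members chosen, and calls over all peaks moved with the fit too. With IL2 at 0.75 h 1007 peaks rose with DESeq2 and 941 with the replicate block, against 490. Other causes were not tested. The replicate block changed no call at 72 h or 168 h (0 in each) or for FP against IL2 at 0.75 h (0). No paired analysis was possible because numbers are not shared at 16 h. Fitting only the groups compared is the same fit at 72 h and 168 h. The choices by CPM per kb and without PBS replicate 1 and FP replicate 2 at 168 h, the lowest totals (0 called), were added after the data were seen. Motif shares fell with a window of 200 bases (STAT5 to 8.0%, ETS to 18.1%, RUNX to 14.0%).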
